A study of Mus with 12 samples.

Results

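The 10 genes described here, in mouse blood, encode subunits and feedback regulators of the transcription factor NF-kappaB, together with Tnfaip2, which is neither. They were picked by name from a gene table of 25247 genes: Nfkb1, Nfkb2, Rel and Relb encode subunits, Nfkbia, Nfkbie, Nfkbiz and Bcl3 encode inhibitors and co-regulators of the IkappaB family, and Tnfaip2 and Tnfaip3 are genes that tumour necrosis factor induces. All 10 were found in the table, and 8 passed the filter on low values. RNA was sequenced from the blood of 12 female BALB/c mice, bought at 6 weeks of age, with 1 library per mouse and 3 mice in each of 4 groups. Solvent mice received the acetone and olive oil vehicle on shaved back skin. DNCB mice were sensitised with 1% dinitrochlorobenzene (DNCB), a skin hapten used to model atopic dermatitis, and challenged repeatedly with 0.5%. scMSC and scivMSC mice received the same DNCB course together with 4 injections, spaced evenly from day 13 to day 25, of 2000000 human umbilical cord mesenchymal stem cells (MSC) each, given as 100 µL under the back skin in scMSC and as 50 µL under the skin plus 50 µL into the tail vein in scivMSC. The injected cells were human and the hosts were mice with an immune system of their own. Blood was collected on day 30.

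NF-kappaB is a family of paired DNA-binding proteins that are held in the cytoplasm of resting leukocytes by IkappaB proteins. Signals from Toll-like, interleukin-1 and tumour necrosis factor receptors activate the IkappaB kinase, which marks IkappaB for destruction and lets the subunits enter the nucleus. Among the genes that NF-kappaB then switches on are several of its own subunits and inhibitors, so that transcripts of this group are often read as a feedback circuit in blood neutrophils, monocytes and lymphocytes.

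The libraries held between 52179764 and 65139421 estimated counts each. Haemoglobin genes, the defining transcripts of red cells, took 83.2% ± 3.10 (SD, n = 3) of the counts in Solvent, 81.2% ± 2.40 in DNCB, 85.6% ± 0.932 in scMSC and 87.3% ± 2.13 in scivMSC. The share was 4.40 points higher in scMSC and 6.16 points higher in scivMSC than in DNCB, and both differences had p = 0.10 in an exact two-sided permutation test, the smallest p that 3 against 3 mice allow. It was 2.01 points lower in DNCB than in Solvent, with an exact permutation p of 0.400. All other transcripts share what haemoglobin leaves, so each change below is given with libraries scaled by total counts and, where a direction or a call differs, also after scaling by the trimmed mean of M values (TMM), which centres the bulk of the genes. Under total counts the median log2 fold change of all 5527 tested genes was 0.06 for DNCB over Solvent. Against DNCB it was -0.63 for scMSC and -1.53 for scivMSC. TMM moved these medians to -0.09, 0.06 and 0.04. Library scivMSC 2 stood apart in detected genes, with 11806 at 4 or more counts against 13159 to 17350 in the other libraries. Its haemoglobin share of 89.0% was the highest, though close to the 88.1% of scivMSC 3. The library was the lowest of its group in 9 of the 10 genes.

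Of the 10 genes, Tnfaip2 changed most with DNCB: it was 9.25-fold higher in DNCB blood than in Solvent blood and 6.39-fold lower again in scMSC than in DNCB. Nfkbiz and Bcl3, the nuclear members of the IkappaB family, followed with means 2.22-fold and 2.47-fold higher in DNCB, differences that did not pass the test under total counts. The 4 subunit genes and Nfkbie had DNCB and Solvent means within 1.27-fold of each other. In scivMSC all 10 genes were lower than in DNCB, from 2.98-fold for Tnfaip3 to 21.3-fold for Tnfaip2, in libraries where most other transcripts were lower as well. In whole blood, fewer cells of a type and less RNA per cell cannot be told apart.

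Nfkb1 (ENSMUSG00000028163, chr3:135584655-135691546, minus strand) encodes the precursor of the p50 subunit. Its level, in FPKM, read fragments scaled by transcript length and library size, was 2.23, 1.74 and 1.5 in the Solvent mice, 1.82, 2.23 and 1.32 in the DNCB mice, 1.21, 0.743 and 1.03 in the scMSC mice, and 0.640, 0.233 and 0.408 in the scivMSC mice. Solvent and DNCB overlapped, every scMSC mouse was below every DNCB mouse, and every scivMSC mouse was below every scMSC mouse. The group means were 1.82 ± 0.376, 1.79 ± 0.455, 0.993 ± 0.235 and 0.427 ± 0.204 (SD, n = 3).

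Nfkb2 (ENSMUSG00000025225, chr19:46304320-46312385, plus strand) encodes the precursor of p52, the subunit of the slower, non-canonical arm. It stood at 3.04, 1.76 and 1.65 FPKM in Solvent, 1.96, 3.26 and 1.43 in DNCB, 0.890, 0.570 and 0.863 in scMSC, and 0.399, 0.0640 and 0.378 in scivMSC. The steps were those of Nfkb1, with no overlap between DNCB and either MSC group, but the drop was steeper. The gene overlaps 4833438C02Rik on the opposite strand, whose mean FPKM was 1.02 ± 0.300, 1.34 ± 0.296, 0.996 ± 0.470 and 0.372 ± 0.0602 in the same order of groups. How strand was treated in counting is not given in the sources used here, so reads of both genes cannot be told apart and the values of Nfkb2 are uncertain.

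Rel (ENSMUSG00000020275, chr11:23736847-23770970, minus strand) encodes c-Rel, a subunit with a transactivation domain that lymphocytes rely on. Its FPKM was 1.68, 1.22 and 0.645 in Solvent, 0.850, 1.45 and 0.710 in DNCB, 0.385, 0.513 and 0.586 in scMSC, and 0.173, 0.0358 and 0.176 in scivMSC. Only 3 libraries, all of them Solvent or DNCB, reached 1 FPKM, so that Rel entered the test through the groups in which it was high. The scivMSC mice were all below the scMSC mice, and the scMSC mice were all below the DNCB mice.

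Relb (ENSMUSG00000002983, chr7:19606217-19629438, minus strand) encodes the partner of p52. It had 1.25, 0.921 and 0.545 FPKM in Solvent, 0.601, 1.28 and 0.736 in DNCB, 0.399, 0.328 and 0.273 in scMSC, and 0.141, 0.0174 and 0.270 in scivMSC. The lowest value rests on 4 counts. With only 2 libraries at 1 FPKM or more it did not pass the filter, and its changes come from a fit without the filter.

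Nfkbia (ENSMUSG00000021025, chr12:55489410-55492647, minus strand) encodes IkappaB alpha, the inhibitor that NF-kappaB resynthesises after each round of activation. On this per-length scale it was the most abundant of the 10 in Solvent, scMSC and scivMSC, with 10.6, 5.28 and 4.5 FPKM in Solvent, 7.20, 17.0 and 7.73 in DNCB, 5.68, 3.27 and 3.60 in scMSC, and 2.80, 0.892 and 2.02 in scivMSC. The DNCB mean of 10.7 ± 5.54 was carried by replicate 2, and the other DNCB mice lay inside the Solvent range. All scMSC mice were below all DNCB mice, but 2 of the Solvent mice lay within the scMSC range.

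Nfkbie (ENSMUSG00000023947, chr17:45555703-45563169, plus strand) encodes IkappaB epsilon, a slower inhibitor of the same type. It was at 1.98, 0.821 and 0.827 FPKM in Solvent, 1.05, 1.17 and 0.645 in DNCB, 0.670, 0.562 and 0.580 in scMSC, and 0.278, 0.219 and 0.173 in scivMSC. Solvent, DNCB and scMSC formed a gentle slope in which DNCB overlapped both neighbours, and only scivMSC stood clear below. It too passed the filter through 3 libraries, all Solvent or DNCB.

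Nfkbiz (ENSMUSG00000035356, chr16:55811375-55838899, minus strand) encodes IkappaB zeta, a nuclear co-activator of a subset of inflammatory genes. Its FPKM was 1.62, 1.02 and 0.876 in Solvent, 2.44, 3.34 and 2.03 in DNCB, 0.887, 0.679 and 0.829 in scMSC, and 0.433, 0.0756 and 0.293 in scivMSC. All DNCB mice exceeded all mice of the other groups, and scMSC and Solvent overlapped at the lower end of the Solvent range.

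Bcl3 (ENSMUSG00000053175, chr7:19808462-19822770, minus strand) encodes a nuclear IkappaB-like protein that binds p50 and p52 dimers. It had 2.84, 1.77 and 0.937 FPKM in Solvent, 3.08, 5.64 and 5.0 in DNCB, 0.903, 0.852 and 1.22 in scMSC, and 0.950, 0.0540 and 0.736 in scivMSC. The DNCB mice were again the highest of all, although the lowest of them was close to the highest Solvent mouse. scMSC and scivMSC overlapped, and the low scivMSC value rests on 8 counts.

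Tnfaip3 (ENSMUSG00000019850, chr10:19000910-19015410, minus strand) encodes A20, a ubiquitin-editing enzyme that shuts off signalling to the IkappaB kinase. It was low throughout, at 1.04, 0.446 and 0.845 FPKM in Solvent, 0.492, 0.696 and 0.401 in DNCB, 0.410, 0.271 and 0.413 in scMSC, and 0.243, 0.0840 and 0.206 in scivMSC. It reached 1 FPKM in 1 library and was fitted without the filter, like Relb. Solvent had the highest mean and DNCB overlapped both Solvent and scMSC.

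Tnfaip2 (ENSMUSG00000021281, chr12:111442469-111455018, plus strand) encodes a cytoplasmic protein induced by tumour necrosis factor and shares with Tnfaip3 the manner of its discovery, not its function. It had 2.35, 1.18 and 1.06 FPKM in Solvent, 12.3, 17.0 and 13.2 in DNCB, 1.99, 1.80 and 2.86 in scMSC, and 0.893, 0.274 and 0.827 in scivMSC. The lowest DNCB mouse was far above the highest mouse of any other group. scMSC overlapped Solvent, and scivMSC lay below both. Its group means of 1.53 ± 0.711, 14.1 ± 2.47, 2.21 ± 0.563 and 0.665 ± 0.340 were the only ones among the 10 genes in which scMSC ranked above Solvent.

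**Figure D1:**
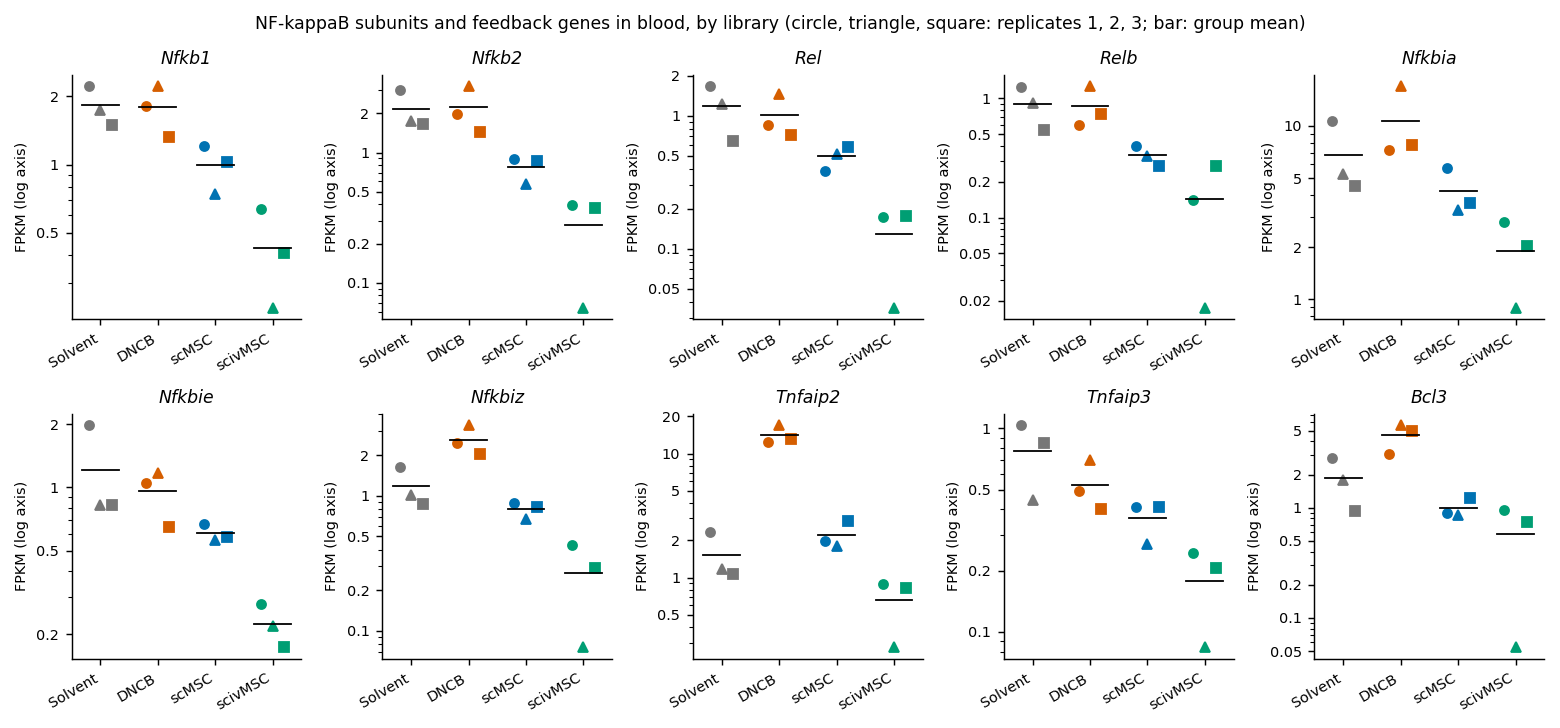
FPKM of the 10 genes in each library, on a log axis with a scale of its own for each gene; circles, triangles and squares are replicates 1, 2 and 3 of each group and bars are group means. Tnfaip2, Nfkbiz and Bcl3 peak in DNCB, while Nfkb1, Nfkb2, Rel, Relb, Nfkbie and Tnfaip3 step down from Solvent or DNCB to scivMSC.

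The comparison of DNCB with Solvent addresses how these transcripts differed after the whole course of sensitisation and challenge. Genes were called at an adjusted p under 0.05 (Benjamini-Hochberg over the 5527 genes, edgeR quasi-likelihood test) and a log2 fold change beyond 1 in either direction. Tnfaip2 was called higher, with a log2 fold change of 3.20 and a standard error (SE) of 0.44 (adjusted p = 8.34e-05), and it was the only 1 of the 8 tested genes to be called, where 20.5% of all tested genes were called, 15.6% higher and 4.87% lower. With TMM 2 of the 8 were called, where 27.6% of all tested genes were, 16.1% higher and 11.5% lower. The log2 difference of Nfkbiz was 1.15 (SE 0.48, adjusted p = 0.104), and under TMM it rose by 1.01 (adjusted p = 0.00764 in edgeR). That of Bcl3 was 1.3 (SE 0.64, adjusted p = 0.167) with total counts and 1.22 with TMM (adjusted p = 0.0586). Without scivMSC 2, Nfkbiz and Bcl3 were both called under total counts, and without scivMSC 1 Nfkbiz was. These 3 genes were also the only ones of the 8 whose DNCB and Solvent mice did not overlap, against 41.5% of all tested genes.

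The other members differed little between DNCB and Solvent. The log2 difference was 0.65 for Nfkbia (SE 0.47, adjusted p = 0.362), -0.02 for Nfkb1 (SE 0.37), -0.23 for Rel (SE 0.51) and -0.34 for Nfkbie (SE 0.46). It was 0.04 for Nfkb2 (SE 0.52) and -0.06 for Relb (SE 0.60), and under TMM the signs of both flipped, to -0.12 and 0.06. Tnfaip3 had -0.55 (SE 0.49). The fit without a filter, from which Relb and Tnfaip3 were read, called 4.67% of all genes. The standard errors of these 7 genes ran from 0.37 to 0.60 under total counts and from 0.16 to 0.45 under TMM, and none of the 7 was called under either scaling.

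The comparison of scMSC with DNCB asks how the transcripts differed when MSC were given under the skin. The log2 fold change was -2.68 for Tnfaip2 (SE 0.43, adjusted p = 0.000464 in edgeR), -2.20 for Bcl3 (SE 0.66, adjusted p = 0.0202) and -1.71 for Nfkbiz (SE 0.49, adjusted p = 0.0153). Nfkb2 had -1.52 (SE 0.53, adjusted p = 0.0418) and Nfkbia -1.36 (SE 0.48, adjusted p = 0.0419). These 5 of the 8 tested genes were called lower, where 24.9% of all tested genes were called lower and 1.27% higher, 26.1% in all. After TMM scaling 12.3% of all tested genes were lower and 8.74% higher, 21.1% in all, and the 3 called members were Tnfaip2 at -1.99, Bcl3 at -1.51 and Nfkbiz at -1.01. The calls of Nfkb2 and Nfkbia, at -0.80 and -0.63 under TMM, were lost there.

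Nfkb1 (-0.86, SE 0.37), Rel (-1.03, SE 0.52), Relb (-1.38, SE 0.61) and Tnfaip3 (-0.55, SE 0.50) did not pass the test in scMSC, where the fit without a filter called 4.90% of all genes. Nfkbie did not pass either, at -0.67 (SE 0.46) with total counts and 0.04 with TMM, so that its direction depends on the scaling. Single mice weighed on this comparison. Tnfaip2 was the only member called without DNCB 2 and without scMSC 2, 2 members were called without scMSC 3, 3 without scMSC 1 and 3 without Solvent 2. Tnfaip2 stayed called in each of the 12 fits that left out a library, with log2 fold changes from -2.91 to -2.53. The groups did not overlap in 7 of the 8 tested genes, all but Nfkbie, against 55.3% of all tested genes.

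The comparison of scivMSC with DNCB asks the same of the combined route, and all 8 tested members were called lower under total counts. The steepest was Tnfaip2 at -4.40 (SE 0.47, adjusted p = 4.63e-06 in edgeR), followed by Nfkbiz at -3.27 (SE 0.52), Nfkb2 at -2.97 (SE 0.56), Rel at -2.96 (SE 0.56), Bcl3 at -2.96 (SE 0.68), Nfkbia at -2.48 (SE 0.49), Nfkbie at -2.08 (SE 0.49) and Nfkb1 at -2.06 (SE 0.38). Relb at -2.59 (SE 0.64) and Tnfaip3 at -1.58 (SE 0.51) were called lower in the fit without a filter, where 23.6% of all genes were called. With TMM in that fit neither was called, Relb at -1.20 (SE 0.47, adjusted p = 0.0863 in edgeR) and Tnfaip3 at -0.23 (SE 0.32, adjusted p = 0.766). A call in this comparison was common: 63.4% of all tested genes were called, 62.0% lower and 1.43% higher, and the members' mice did not overlap in 8 of 8 genes against 73.3% of all tested genes. The call of Tnfaip3 was lost without DNCB 2 and without scivMSC 2.

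TMM scaling left 5 of the 8 called in scivMSC, where the split over all tested genes was 18.9% lower and 20.6% higher, 39.4% in all. The changes were -2.86 for Tnfaip2, -1.79 for Nfkbiz, -1.54 for Bcl3, -1.44 for Nfkb2 and -1.41 for Rel. Nfkb1 at -0.51 and Nfkbia at -0.90 kept an adjusted p under 0.05 in edgeR but were within the fold limit, and Nfkbie at -0.41 had an adjusted p of 0.297. The median log2 fold change of the 8 genes was -2.96 under total counts beside -1.53 for all tested genes, and -1.42 under TMM beside 0.04. Nfkb2, Rel, Nfkbie and Nfkbiz reached 1 FPKM in Solvent and DNCB libraries alone, so these medians are a description. The comparisons of scMSC and of scivMSC with DNCB share the same 3 DNCB mice, so that a high or low DNCB mouse moves both.

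**Figure D2:**
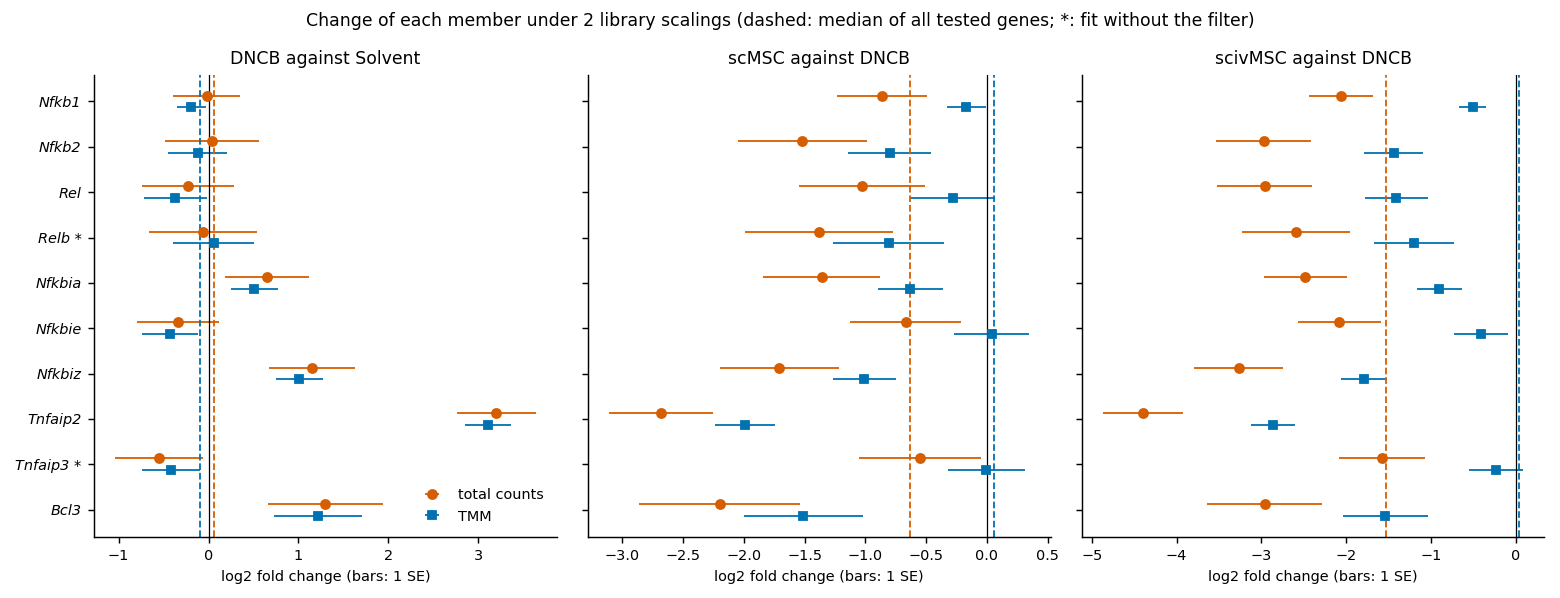
Log2 fold change of each gene in DNCB against Solvent, scMSC against DNCB and scivMSC against DNCB, with libraries scaled by total counts (orange circles) or TMM (blue squares); bars are 1 SE, dashed lines are the median of all tested genes under each scaling, and Relb and Tnfaip3 come from the fit without a filter. Tnfaip2 lies farthest from the dashed lines in all 3 panels (3.20, -2.68 and -4.40 under total counts), and Nfkb1, Nfkbie and Tnfaip3 lie closest to them in the scivMSC panel. The dashed lines belong to the filtered fits and not to the fit of Relb and Tnfaip3. That fit had a median of -1.26 under total counts in the scivMSC panel, from which Tnfaip3 differed by -0.32.

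Between the MSC routes, 6 of the 8 tested members were called lower in scivMSC than in scMSC under total counts, where 30.4% of all tested genes were lower and 0.344% higher, 30.8% in all. They were Nfkb1 (-1.20), Nfkb2 (-1.45), Rel (-1.93), Nfkbie (-1.41), Nfkbiz (-1.56) and Tnfaip2 (-1.72), while Nfkbia (-1.12, adjusted p = 0.0788 in edgeR) and Bcl3 (-0.76, adjusted p = 0.366) were not. Under TMM the call of Rel alone held, at -1.13 (adjusted p = 0.0342), where 18.0% of all tested genes were called, 4.92% lower and 13.1% higher. In the fit without a filter, Relb had -1.20 (SE 0.62) and Tnfaip3 -1.03 (SE 0.50), and neither was called, as 9.10% of all genes were. The groups did not overlap in 7 of the 8 tested genes, all but Bcl3, against 50.5% of all tested genes. Leaving out scMSC 3 left 1 call, and leaving out scMSC 1, scivMSC 2 or scivMSC 3 left 2 each. In the edgeR fit of these 6 libraries alone none of the 8 was called, as 0.0724% of all tested genes were, although 7 had an unadjusted p under 0.05, and limma on log2(FPKM + 1) called none, with 5 at an unadjusted p under 0.05.

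Against the mice that never received DNCB, scMSC had no called member, where 0.651% of all tested genes were called, 0.326% in each direction. Its log2 fold changes ran from -1.48 for Nfkb2 (SE 0.53, adjusted p = 0.113 in edgeR) to 0.52 for Tnfaip2 (SE 0.41, adjusted p = 0.370). With TMM Tnfaip2 was called higher in scMSC than in Solvent, at 1.12 (adjusted p = 0.0108), where 8.50% of all tested genes were called, 7.29% higher and 1.21% lower. At an unadjusted p under 0.05 the total-count fit had 4 members, Nfkb1, Nfkb2, Rel and Nfkbie, all lower, while DESeq2 called Tnfaip2 alone and limma called none. The groups did not overlap in 4 of the 8 genes, the same 4, against 47.6% of all tested genes. In the fit without a filter, which called 0.412% of all genes, Relb had -1.44 (SE 0.61) and Tnfaip3 -1.1 (SE 0.50). Nfkb2 and Rel were called lower when scivMSC 2 was left out.

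Against the Solvent mice, scivMSC was lower in all 8 tested members, where 59.2% of all tested genes were lower and 2.59% higher, 61.8% in all. The range ran from -3.19 for Rel (SE 0.56, adjusted p = 0.000296 in edgeR) to -1.19 for Tnfaip2 (SE 0.42, adjusted p = 0.0194), and Tnfaip2 turned to 0.25 under TMM. Rel at -1.78 and Nfkb2 at -1.55 were the members still called with TMM, where 35.8% of all tested genes were called, 13.4% lower and 22.4% higher. Relb at -2.64 (SE 0.64) and Tnfaip3 at -2.13 (SE 0.52) were called lower in the fit without a filter, which called 29.2% of all genes. With TMM in that fit Relb had -1.14 (adjusted p = 0.103 in edgeR) and Tnfaip3 -0.65 (adjusted p = 0.200), and both calls were lost. The mice of these groups did not overlap in 7 of the 8 tested genes, all but Bcl3, against 68.7% of all tested genes. The calls of Tnfaip2 and Bcl3 were lost without Solvent 1, that of Tnfaip2 also without scivMSC 2 and that of Bcl3 without Solvent 2. Over the 4 groups together, the edgeR test gave each of the 8 members an adjusted p under 0.05, from 2.33e-06 for Tnfaip2 to 0.00317 for Bcl3, as it did for 72.3% of all tested genes. Nfkb2, Rel, Nfkbie and Nfkbiz reached 1 FPKM in Solvent and DNCB libraries alone, so that they entered the test through the groups in which they were high, and their place among the genes called lower in the MSC groups is a description.

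Dividing each FPKM by that of Nfkb1 in the same library removes the scaling of the library. Tnfaip2 stood at 1.05, 0.680 and 0.706 times Nfkb1 in the Solvent mice, 6.78, 7.60 and 9.94 times in DNCB, 1.64, 2.42 and 2.78 times in scMSC, and 1.39, 1.18 and 2.03 times in scivMSC. The DNCB mice were far above all others, and both MSC groups lay between DNCB and Solvent without overlapping either. Nfkbiz gave 0.726, 0.587 and 0.585 in Solvent, 1.34, 1.49 and 1.53 in DNCB, 0.733, 0.914 and 0.807 in scMSC, and 0.677, 0.324 and 0.718 in scivMSC. Here too the DNCB mice overlapped no other group, and their spread (mean 1.45 ± 0.0999) was small beside the gap to scMSC (0.818 ± 0.0909) and Solvent (0.633 ± 0.0809).

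Bcl3 was at 2.67 ± 1.05 times Nfkb1 in DNCB against 0.971 ± 0.324 in Solvent and 1.03 ± 0.243 in scMSC, with no overlap. Its scivMSC ratios, from 0.231 to 1.81, reached into the DNCB range, whose lowest mouse was at 1.69. The ratio of Nfkb2 was 1.16 ± 0.182 in Solvent and 1.20 ± 0.220 in DNCB, and 0.781 ± 0.0528 in scMSC and 0.608 ± 0.326 in scivMSC, each MSC group below all mice of the first 2 groups.

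Tnfaip3 had its lowest mean ratio in DNCB, at 0.295 ± 0.0219, below every scMSC mouse (0.369 ± 0.0317) and every scivMSC mouse (0.415 ± 0.0787), while the Solvent mice spread from 0.256 to 0.565 around it. The ratios of Nfkbia, Nfkbie and Relb to Nfkb1 overlapped between all groups. That of Rel, 0.551 ± 0.0930 in DNCB and 0.285 ± 0.140 in scivMSC, separated only these groups. These ratios were chosen for description and carry no test.

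**Figure D3:**
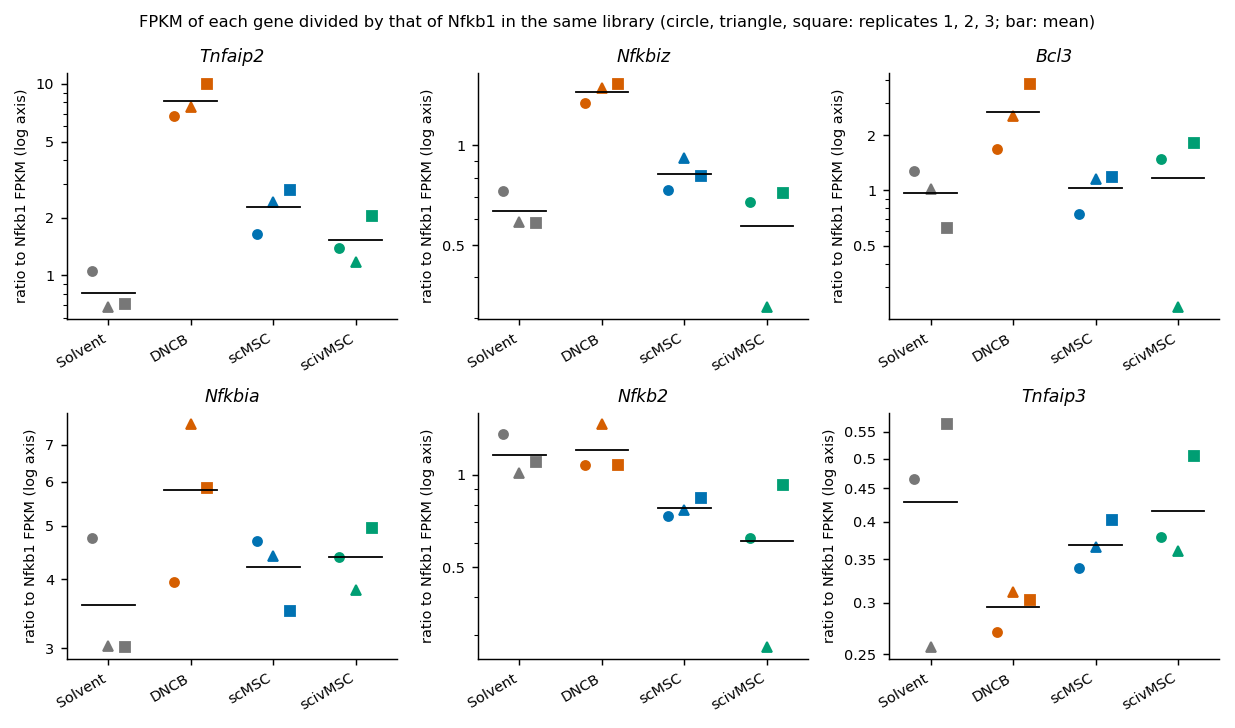
FPKM of 6 genes divided by that of Nfkb1 in the same library, on log axes; circles, triangles and squares are replicates 1, 2 and 3, and bars are group means. The DNCB ratios of Tnfaip2 (6.78 to 9.94) and Nfkbiz (1.34 to 1.53) lie above all other mice, those of Nfkbia overlap between groups, and those of Nfkb2 are lower in both MSC groups.

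The make-up of the group shifted accordingly. The summed FPKM of the 10 genes was 19.4 ± 8.14 in Solvent, 39.4 ± 11.9 in DNCB, 11.8 ± 1.96 in scMSC and 4.80 ± 2.57 in scivMSC. Tnfaip2 made up 7.80% ± 0.442 of that sum in Solvent, 36.8% ± 4.22 in DNCB, 19.0% ± 4.26 in scMSC and 14.0% ± 1.12 in scivMSC. Nfkbia made up 34.5% ± 2.29, 26.0% ± 5.29, 35.3% ± 6.55 and 41.0% ± 4.49 in the same order. Nfkb1, by contrast, took 9.91% ± 1.85, 4.64% ± 0.940, 8.38% ± 0.634 and 9.54% ± 2.29.

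Within groups the genes moved together by mouse. Solvent 1 was the highest Solvent library and DNCB 2 the highest DNCB library in all 10 genes, and these were the libraries with the lowest haemoglobin share of their groups, 79.7% and 78.4%. On log2(FPKM + 1) values, Pearson's r over the 12 libraries ran from 0.36 (Tnfaip2 with Tnfaip3) to 0.98 (Nfkb1 with Nfkb2), with a median of 0.88 over the 45 pairs. Taken on deviations from the group means, r ran from 0.41 (Rel with Tnfaip3) to 0.98 (Nfkb2 with Nfkbiz), with a median of 0.76. The points of these correlations share libraries and their haemoglobin share, so the values are a description.

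By the same measure over the 12 libraries, the tested genes closest in pattern were Safb2 and Cul4b for Nfkb1 (r = 0.992 for both), Cdk11b (0.989) and Morc3 (0.986) for Nfkb2, and Cpsf7 (0.989) and Slc17a9 (0.984) for Rel. They were Aftph (0.984) and Trpc4ap (0.982) for Nfkbia, and Adss (0.984) and Rae1 (0.981) for Nfkbie. Nfkbiz was closest to Nedd9 (0.999), which went from 2.19 FPKM in Solvent to 5.22 in DNCB, 1.53 in scMSC and 0.587 in scivMSC, and to Pacs1 (0.996). Tnfaip2 was closest to Lpcat2 (0.996), with means of 1.09, 9.62, 1.28 and 0.434 FPKM, and to Mpzl3 (0.995). Bcl3 was closest to Rab4b (0.989) and Arpc1b (0.981).

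The rest of the pathway was read from 4 lists. Of 15 other core genes, which hold the remaining subunit, IkappaB genes and the kinases, 9 were tested. Over all tested genes, 15.6% were called higher with DNCB and 4.87% lower, and against DNCB 24.9% were called lower in scMSC (12.3% under TMM) and 62.0% in scivMSC (18.9% under TMM). In DNCB against Solvent 1 core gene was called higher and 1 lower, with a median log2 fold change of 0.12 (-0.11 under TMM). Against DNCB, 3 were lower in scMSC (none lower and 1 higher under TMM) and 8 were lower in scivMSC (2 lower and 1 higher under TMM, near the share of all tested genes). Nfkbib, Nfkbil1 and Map3k14 of this list reached 1 FPKM in Solvent and DNCB libraries alone, so their lower values in the MSC groups are a description. Rela, the canonical partner of p50, had 3.13 ± 1.11 FPKM in Solvent, 4.68 ± 1.25 in DNCB, 1.99 ± 0.328 in scMSC and 0.718 ± 0.273 in scivMSC. Its log2 fold change was 0.58 with DNCB (adjusted p = 0.314 in edgeR). Against DNCB it fell by 1.24 in scMSC (adjusted p = 0.0251) and by 2.70 in scivMSC (adjusted p = 4.24e-05), with -0.54 and -1.11 under TMM.

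Nfkbid, the third nuclear IkappaB gene, was the core gene that rose with DNCB, from 0.997 ± 0.0987 to 2.66 ± 0.648 FPKM, a log2 fold change of 1.41 (adjusted p = 0.0356 in edgeR, 1.21 under TMM). It was at 0.969 ± 0.317 in scMSC and 0.326 ± 0.169 in scivMSC. Nfkbib, for IkappaB beta, had 0.12 with DNCB (-0.11 under TMM) and -0.91 in scMSC, neither called. Map3k14, the kinase NIK of the non-canonical arm, had -0.28 and -0.50 in these comparisons, neither called and the latter 0.24 under TMM, and fell by 2.41 in scivMSC against DNCB (-0.74 under TMM). That fall is a description, as Map3k14 entered the test through Solvent and DNCB libraries alone. Chuk, for the kinase IKK alpha, had -0.31 in scMSC and -0.49 in scivMSC against DNCB, and under TMM both signs turned, to 0.38 and to a called 1.06. Ikbkb and Ikbkg, for the other kinase subunits, did not pass the filter, with means from 0.180 to 1.07 and from 0.237 to 0.548 FPKM.

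Receptors and adaptors upstream of the kinases were represented by 24 genes, 17 of them tested. With DNCB 7 were called higher (8 under TMM) and 3 lower, and the median log2 fold change was 1.00 beside 0.06 for all tested genes. Against DNCB, 8 were lower and 1 higher in scMSC (5 and 2 under TMM), and 14 were lower and 1 higher in scivMSC (8 and 2 under TMM). Over all tested genes, 15.6% were called higher with DNCB and 4.87% lower (16.1% and 11.5% under TMM). Against DNCB, 24.9% were lower and 1.27% higher in scMSC (12.3% and 8.74% under TMM). In scivMSC 62.0% were lower and 1.43% higher (18.9% and 20.6% under TMM). Ripk1 reached 1 FPKM in DNCB libraries alone and Traf5 in Solvent libraries alone. Each entered the test through the group in which it was high, so their calls are a description. Tnfrsf13c, Irak3, Tradd, Traf3 and Ltbr reached 1 FPKM in Solvent and DNCB libraries alone, so their calls in the MSC groups are a description too. Myd88, the adaptor of Toll-like and interleukin-1 receptors, went from 3.77 ± 1.34 to 20.9 ± 4.87 FPKM with DNCB, a log2 fold change of 2.47 (adjusted p = 0.000584 in edgeR). It was lower by 2.42 on the log2 scale in scMSC, at 3.93 ± 0.714 FPKM, and stood at 1.12 ± 0.615 in scivMSC. Birc3, a ubiquitin ligase of tumour necrosis factor receptor complexes that NF-kappaB itself induces, had 1.00 with DNCB (adjusted p = 0.107), and -1.61 in scMSC and -3.11 in scivMSC, both called. Under TMM these became -0.88, no longer called, and -1.50, still called. Traf1 did not pass the filter, with means from 0.179 to 0.832 FPKM.

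Of 15 further brakes of the pathway, 10 were tested. With DNCB 2 were higher and none lower, where 15.6% of all tested genes were higher and 4.87% lower. Against DNCB, 2 were lower in scMSC (2 lower and 1 higher under TMM), and 5 were lower in scivMSC (3 lower and 4 higher under TMM), the latter with a median of -1.16 that TMM turned to 0.36, beside -1.53 and 0.04 for all tested genes. Of all tested genes, 24.9% were lower in scMSC (12.3% under TMM) and 62.0% in scivMSC (18.9% lower and 20.6% higher under TMM). Under total counts the brakes lay near these shares with DNCB and in scMSC, and below them in scivMSC. Itch and Pdlim2 of this list reached 1 FPKM in Solvent and DNCB libraries alone, so their calls in the MSC groups are a description. Zfp36, for tristetraprolin, which destabilises cytokine transcripts, rose with DNCB by 1.55 (adjusted p = 0.00818 in edgeR), from 5.81 ± 1.69 to 17.0 ± 4.72 FPKM. It was at 4.94 ± 0.898 in scMSC and 2.13 ± 1.04 in scivMSC, both called lower than DNCB. Zc3h12a, for the RNase regnase, had 1.00 with DNCB (adjusted p = 0.271). Tnip1, a partner of A20, had 0.08 (-0.09 under TMM), and Cyld was below the filter at 0.200 to 0.689 FPKM on average.

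Among 29 measured genes of a 32-gene list of known NF-kappaB targets, 12 were tested. With DNCB 5 were higher (6 under TMM) and 2 lower, where 15.6% of all tested genes were higher (16.1% under TMM) and 4.87% lower (11.5% under TMM). Against DNCB, 6 were lower in scMSC (4 under TMM), where 24.9% of all tested genes were lower (12.3% under TMM). In scivMSC 8 were lower than in DNCB (6 lower and 3 higher under TMM). The 8 of 12 under total counts lie near the 62.0% of all tested genes called lower there. Under TMM 18.9% of all tested genes were lower there and 20.6% higher. Il1rn, Clec4e and Ccl3 of this list reached 1 FPKM in DNCB libraries alone. They entered the test through the group in which they were high, so their calls are a description. Il1b, for the cytokine interleukin-1 beta, had 13.5 ± 3.88 FPKM in Solvent, 84.4 ± 12.8 in DNCB, 17.5 ± 3.01 in scMSC and 5.43 ± 3.07 in scivMSC. Its log2 fold change was 2.64 with DNCB (adjusted p = 0.000206 in edgeR), -2.28 in scMSC and -3.96 in scivMSC against DNCB. Sod2, a mitochondrial antioxidant enzyme often used as a target of the pathway, had group means between 0.833 and 1.1 FPKM, was not called in these comparisons under total counts, and was called higher in scivMSC against DNCB under TMM (0.18 and 1.79). Tnf, Cxcl2, Icam1 and Bcl2a1b, whose reads may be shared with its near-identical copies, did not pass the filter, and the highest group mean among them was 1.43 FPKM, for Icam1 in Solvent.

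Transcripts of blood cell types moved in the same libraries. Over all tested genes, 15.6% were called higher in DNCB than in Solvent (16.1% under TMM). Against DNCB, 24.9% were lower in scMSC and 62.0% in scivMSC (12.3% and 18.9% under TMM). The summed FPKM of 10 neutrophil markers was 217 to 442 in Solvent, 6629 to 10447 in DNCB, 543 to 692 in scMSC and 221 to 664 in scivMSC, and all 10 were called higher in DNCB than in Solvent and lower in both MSC groups than in DNCB, under total counts and under TMM. S100a9 and S100a8 led the list, with DNCB means of 4519 ± 1225 and 2045 ± 534 FPKM against 216 ± 75.9 and 71.6 ± 26.7 in Solvent. The 8 monocyte markers summed to 8.40 to 22.3, 24.8 to 44.6, 12.4 to 12.8 and 8.78 to 10.2 FPKM in the 4 groups, led by F13a1 and Csf1r. Both sums, like Tnfaip2, Nfkbiz and Bcl3, were higher in every DNCB mouse than in any other mouse. Of 5 tested monocyte markers, 2 were called higher with DNCB and 3 lower in scMSC than in DNCB, under both scalings. In scivMSC 4 were lower than in DNCB (2 lower and 1 higher under TMM). The higher one was F13a1, which led the scivMSC sum at 7.29 FPKM. Ms4a6c reached 1 FPKM in Solvent and DNCB libraries alone, so its calls in the MSC groups are a description. Cx3cr1, below the filter, alone had a lower mean in DNCB (0.303 FPKM) than in Solvent (0.681).

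The lymphocyte lists ran differently. The 9 T cell markers, led by Lck and Trac, summed to 62.4 to 105 FPKM in Solvent, 23.7 to 34.0 in DNCB, 32 to 44.6 in scMSC and 8.43 to 22.3 in scivMSC. The 8 B cell markers, led by Cd79a and Cd79b, summed to 45.4 to 146, 12.7 to 35.6, 14.0 to 20.1 and 3.67 to 8.47. The 6 natural killer cell markers, led by Gzma and Ncr1, had group medians of 25.5, 8.72, 6.02 and 4.44 FPKM, the 8 eosinophil and basophil markers, led by Mcpt8 and Prg2, 2.09, 7.26, 4.03 and 2.56, and the 8 platelet markers, led by Pf4 and Ppbp, 490, 714, 776 and 840. The eosinophil and basophil list was mixed: Prg2 had means of 0.0438, 0.298, 1.44 and 1.92 FPKM (SD 1.77 in scivMSC). It reached 1 FPKM in MSC libraries alone and was called higher in scivMSC than in DNCB (2.63, adjusted p = 0.0162 in edgeR, 4.53 under TMM). Of the 3 tested markers of that list, 1 was called higher with DNCB under both scalings. In scivMSC against DNCB 2 were lower and 1 higher (1 each under TMM). Cpa3 of this list reached 1 FPKM in DNCB libraries alone. Cpa3 and Prg2 thus entered the test through the groups in which they were high, so their calls are a description. The 7 measured erythroid markers of a list of 8, led by Alas2 and Bpgm, had medians of 5300, 4795, 4726 and 5398. The calls on these lists depended on the scaling. Over all tested genes, 4.87% were called lower in DNCB than in Solvent (11.5% under TMM). Against DNCB, 1.27% were higher in scMSC (8.74% under TMM). In scivMSC against DNCB, 62.0% were lower and 1.43% higher (18.9% and 20.6% under TMM). Pax5 of the B cell list reached 1 FPKM in Solvent libraries alone, so its calls are a description. Of the 9 T cell markers, 8 were called lower in DNCB than in Solvent under both scalings, none differed by a call in scMSC against DNCB under total counts while TMM called 8 higher, and the median in scivMSC against DNCB was -0.82 under total counts and 0.71 under TMM. All 8 B cell markers were called lower in DNCB than in Solvent under both scalings, and 8 were lower in scivMSC than in DNCB under total counts but none under TMM. Of the 8 platelet markers none was called in scivMSC against DNCB under total counts, and TMM called 7 higher. Of the 5 tested erythroid markers none was called there under total counts, and TMM called all 5 higher (median log2 fold change 2.24). None of the markers was at 0 in every library. The part of these cell types in the values of the NF-kappaB genes was not tested.

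**Figure D4:**
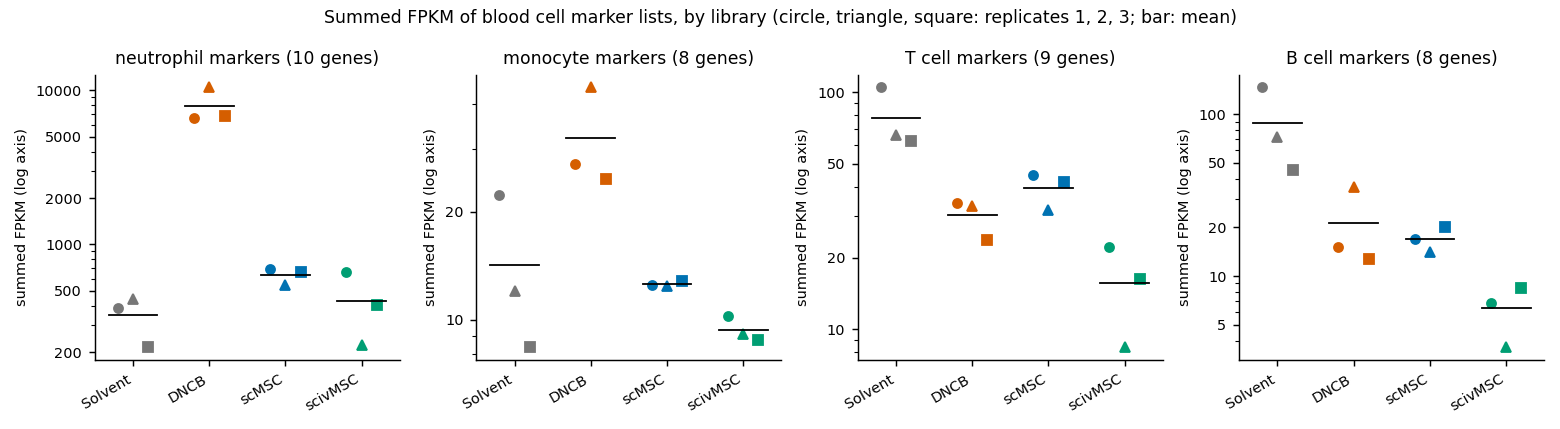
Summed FPKM of the neutrophil, monocyte, T cell and B cell marker lists in each library, on log axes; circles, triangles and squares are replicates 1, 2 and 3, and bars are group means. Neutrophil sums reach 6629 to 10447 in DNCB and at most 692 elsewhere, and T and B cell sums are highest in Solvent and, on this FPKM scale, lowest in scivMSC, a step below DNCB that TMM scaling does not keep.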

How the data were processed

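Blood RNA of 12 mice was sequenced. The authors deposited 1 table that holds, per gene and library, an estimated count and the FPKM derived from it. The submitters' processing notes name Bowtie 0.12.2, HISAT2 2.0, StringTie 1.3.0 and build mm8, but the coordinates in the table, which are printed as deposited, overlap those of GRCm38.p6 for 99.9% of 21469 matched symbols. The low counts pile up at multiples of 4 (29.0% of values from 1 to 12 are 4), so 1 read may be worth more than 1 count. Counts were rounded and fitted with edgeR 4.0.16 (R 4.3.3), scaled by total counts, on the 5527 genes with FPKM of at least 1 in at least 3 libraries, with 4 group means and all 12 libraries. Relb and Tnfaip3 were read from a fit without that filter. Alternatives were TMM, totals without haemoglobin, DESeq2 1.42.0, limma 3.58.1 on log2(FPKM + 1) and log2(FPKM + 0.1), other filters, counts divided by 4, only the groups compared, a replicate block and leaving out each library. The scripts were tested on simulated data. The text names all 10 members, for each tested member the 2 symbol-bearing genes of highest correlation, set genes of the pathway lists and the 2 most abundant markers of each cell list. Members and lists were chosen with earlier results of these data known.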

Additional observations from a re-analysis of the deposited data

How the results depend on the processing

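Limits come first from 3 mice a group and from haemoglobin, which leaves 5843407 to 12858063 counts for all other genes: the lowest values of Relb and Bcl3 rest on 4 and 8 counts. Called members changed in number as follows, and where no cause is shown by how an alternative is built, the cause was not tested. The share of all tested genes called moved as well. With TMM it went from 20.5% to 27.6%, 26.1% to 21.1% and 63.4% to 39.4% in the first 3 comparisons below. In the last 3 it went from 30.8% to 18.0%, 0.651% to 8.50% and 61.8% to 35.8%. With only the groups compared it was 0.0724% in scivMSC against scMSC. Shares under most other alternatives are not given here, so these counts are not a result about the members. In DNCB against Solvent the count of 1 became 2 with TMM, 3 with DESeq2, 3 when only the groups compared were fitted, 0 with a mean FPKM of at least 5 (which leaves 1 member, Nfkbia), and 1 to 3 when single libraries were left out. In scMSC against DNCB the count of 5 became 3 with TMM, DESeq2, totals without haemoglobin, limma on log2(FPKM + 1) and no filter, 1 with a mean FPKM of at least 5, and 1 to 6 without single libraries. In scivMSC against DNCB the count of 8 became 5 with TMM, DESeq2 and limma on log2(FPKM + 1), 1 with a mean FPKM of at least 5, and stayed at 8 without any single library. In scivMSC against scMSC the count of 6 became 1 with TMM and DESeq2, 0 with limma on log2(FPKM + 1), with a mean FPKM of at least 5 and with only the groups compared, and 1 to 7 without single libraries. In scMSC against Solvent the count of 0 became 1 with TMM and DESeq2, 2 with only the groups compared, and 0 to 2 without single libraries. In scivMSC against Solvent the count of 8 became 2 with TMM, DESeq2 and limma on log2(FPKM + 1), 1 with a mean FPKM of at least 5, and 6 to 8 without single libraries. The test over the 4 groups passed 8 members, and 7 with TMM. Haemoglobin shares kept their direction, with differences of -3.77 to -0.634, 3.02 to 5.22 and 4.79 to 7.36 points without single libraries.

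The log2 fold changes that turned sign were small, except that of Tnfaip2 in scivMSC against Solvent, which was 0.25 with TMM and 0.27 with DESeq2. In DNCB against Solvent, Nfkb1 was 0.15 without Solvent 1 and 0.15 without DNCB 3 (range -0.22 to 0.15 over the fits that leave out a library). Nfkb2 was -0.12 with TMM, -0.13 with totals without haemoglobin, -0.09 with DESeq2, and -0.08, -0.12 and -0.34 without Solvent 2, Solvent 3 and DNCB 2 (range -0.34 to 0.38). Rel was 0.12 (range -0.60 to 0.12) and Nfkbie 0.22 (range -0.55 to 0.22) without Solvent 1. In the fits without a filter, the TMM and leave-one-out versions of which were added after the data were seen, Relb was 0.06 with TMM, and 0.26, 0.15 and 0.05 without Solvent 1, DNCB 1 and DNCB 3. In scMSC against DNCB, Nfkbie was 0.04 with TMM. Of the members' other recomputed values, 1017 kept direction and call, 117 lost the call and 18 gained it.

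The replicate numbers were not taken as pairs, because same-numbered deviations did not correlate above 0.1 in every pair (-0.156 to 0.132 over 18 pairs). Still, 8 of 12 libraries correlated best with a library of their own number, a hint from the data and not from the design. A replicate block left the counts of called members at 1, 5, 8, 6, 0 and 8 in the order above, moved the sign of Nfkb1 in DNCB against Solvent to 0.01, and changed no call of a member. Over all genes it moved calls from 36 to 11 in scMSC against Solvent and by less than 1.5 times elsewhere.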

Other observations

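Receptor and adaptor genes of the pathway lists, named here after their values were seen, moved in opposite directions with DNCB under both scalings. Tnfrsf1a, the main tumour necrosis factor receptor, went from 3.37 ± 0.718 (SD, n = 3) FPKM in Solvent to 21.4 ± 4.64 in DNCB, a log2 fold change of 2.66 (adjusted p = 7.90e-05 in edgeR), and Ltbr, the lymphotoxin beta receptor, from 0.920 ± 0.575 to 5.19 ± 1.67. Card9, the scaffold that couples myeloid lectin receptors to NF-kappaB, rose from 1.26 ± 0.177 to 8.78 ± 2.28. Tnfrsf13c, the BAFF receptor of B cells, fell from 2.74 ± 1.12 to 0.718 ± 0.577.

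Birc2, for a ubiquitin ligase that restrains NIK, was the adaptor called higher in both MSC groups. It had 4.56 ± 1.04 FPKM in Solvent, 3.21 ± 0.703 in DNCB, 7.45 ± 0.727 in scMSC and 6.68 ± 0.423 in scivMSC, with log2 fold changes against DNCB of 1.20 (adjusted p = 0.00559) and 1.05 (adjusted p = 0.00412), and of 1.91 and 2.77 under TMM. Its relative Birc3 was called lower in both MSC groups than in DNCB under total counts, and in scivMSC alone under TMM.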
